A study of Mus musculus with 9 samples.

Results

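CD8 T cells labelled as lacking CTCF were compared directly with CD8 T cells labelled as lacking both Tcf1 and Lef1. Per the labels, donors of all groups carried the hCD2-Cre transgene, a Cre recombinase under human CD2 control, and Rosa26-lsl-GFP, a reporter that Cre switches on. Beside these, the donors were wild type (WT), floxed for Ctcf (genotype CTCF-/-, here CTCF KO) or floxed for the genes of Tcf1 and Lef1 (genotype Tcf1-/-Lef1-/-, here DKO). Naive CD8 T cells from donor spleens were stained with CTV, a dye diluted by division, and placed in Rag1 KO hosts, which lack B and T cells of their own. After 72 h of homeostatic proliferation, CD8 T cells that carried TCRβ, the reporter and the dye were recovered from host spleens by sorting, and their total RNA was sequenced. The source names of all groups also hold the word stim. The age and sex of the donors and the number of animals pooled are not given in the sources used here. Each group had 3 libraries, and the 6 libraries of CTCF KO and DKO made the comparison; the 3 WT libraries were used only to tell which group departed from WT. Members were all autosomal genes with at least 1 FPKM (fragments per kilobase of transcript, relative to all mapped fragments) in at least 3 of the 6 libraries, which gave 9649 of 22802 autosomal genes in a table of 23946 genes.

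CTCF is a zinc finger protein that binds insulator sites and stops cohesin, so that chromatin loops end there. Tcf1, the product of Tcf7, and Lef1 are HMG-box proteins that bind DNA near the sequence CTTTGA, recruit either β-catenin or Groucho corepressors, and are known for keeping CD8 T cell identity and the naive and memory states. Naive T cells that enter a host without lymphocytes divide slowly under the cytokines interleukin-7 and interleukin-15 and contact with self peptide on MHC molecules. The comparison asks where loss of CTCF and loss of Tcf1 and Lef1 leave the transcriptome of such cells apart.

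The targeted genes gave an incomplete check of the labels. Lef1 was at 428, 433 and 432 FPKM in the CTCF KO libraries, 95.7, 87.4 and 89 in the DKO libraries and 360.3, 338 and 339 in WT. All DKO values were far below the others, with a log2 fold change (CTCF KO minus DKO, on the log2(FPKM + 1) scale, as for every fold change here) of 2.24 (SE 0.06, adjusted p = 1.7e-07). Tcf7 was at 252, 268 and 274 FPKM in CTCF KO and 339, 333 and 355 in DKO, with 259, 262 and 249 in WT. It was thus higher in the group labelled as lacking its product (log2 fold change -0.37, SE 0.06, adjusted p = 0.0016). Ctcf was at 20.2, 17.1 and 17.6 FPKM in CTCF KO, 35.6, 39.1 and 32.4 in DKO and 18.6, 20.3 and 32.7 in WT. The CTCF KO values were below all DKO values (log2 fold change -0.93, SE 0.11, adjusted p = 0.000425) but overlapped WT. Ctcf is GC-rich, and in a fit that takes the GC index, defined below, as covariate it was not called (log2 fold change -0.36, adjusted p = 0.176). FPKM covers the whole gene and the floxed exons are not given in the sources used here, so transcripts that lack those exons still count. CTCF KO and DKO therefore stand below for the libraries so labelled. The defining genes of CD8 T cells were present: Cd8b1 was at 1530 to 1940 FPKM and Cd3g at 1480 to 2250 FPKM over the 9 libraries. Both were called higher in DKO, while their partner genes Cd8a (442, 470.3 and 479 FPKM in CTCF KO, 278, 292 and 285 in DKO) and Cd3d (729, 844 and 777 and 484, 538 and 498) were called higher in CTCF KO.

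Before the results, a property of the libraries has to be given. For each gene the highest GC content of any 100-base window of its longest transcript was computed from GENCODE M21, and genes with a window of 80% or more were called GC-rich, a limit chosen after the data had been seen. Of 9592 tested genes with a value, 2052 were GC-rich. The GC index of a library, the median of its centred log2 values over GC-rich genes minus that over the other genes, was 0.244 to 0.308 in the DKO libraries. It was 0.04, -0.242 and -0.254 in the CTCF KO libraries and -0.382, -0.11 and 0.116 in the WT libraries. The DKO libraries thus stood above all others in GC-rich transcripts, and this and the genotype cannot be told apart. Single libraries show the same gradient at single genes. Taf10, a subunit of the general transcription factor TFIID with a window of 85% GC, had 28, 5.21 and 7.38 FPKM in CTCF KO, 239, 289 and 206 in DKO and 4.72, 6.81 and 86.8 in WT, so that the WT library with the highest index lay between DKO and the other WT libraries. Stretches of 100 bases with the highest GC in the coding sequence of Jund and Klf2, among the largest differences of GC-rich genes, and of Gzma, the largest difference of all named genes higher in DKO, are printed 5′ to 3′ on the transcript strand with G and C in capitals, from GENCODE M21 (GRCm38).
Jund: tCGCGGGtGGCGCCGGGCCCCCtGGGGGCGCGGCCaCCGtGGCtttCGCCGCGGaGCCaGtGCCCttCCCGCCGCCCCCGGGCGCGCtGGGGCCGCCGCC
Klf2: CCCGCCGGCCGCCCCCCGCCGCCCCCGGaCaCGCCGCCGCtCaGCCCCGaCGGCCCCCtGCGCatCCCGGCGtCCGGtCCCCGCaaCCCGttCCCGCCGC
Gzma: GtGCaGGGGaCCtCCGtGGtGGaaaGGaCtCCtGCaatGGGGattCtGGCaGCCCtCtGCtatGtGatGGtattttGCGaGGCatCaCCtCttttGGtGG
They hold 86%, 86% and 56% G and C. Counts are therefore given for all tested genes and for the 7540 genes without a GC-rich window. A fit over the 9 libraries takes the GC index as covariate and was chosen after seeing the data. It is given beside each list count above 2 that it moves by more than 1.5 times. The index is computed from GC-rich genes and is higher in all DKO libraries than in the others, so this fit cannot tell GC from genotype.

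**Figure D1:**
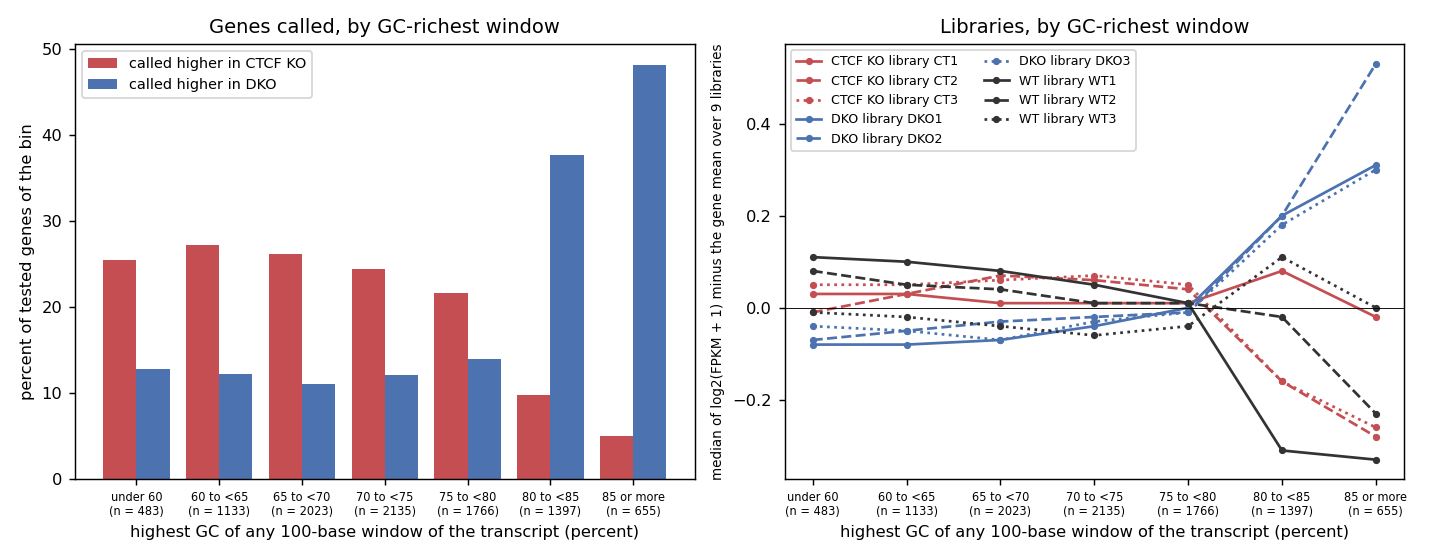
Left, percent of tested genes called higher in CTCF KO (red) or in DKO (blue) by the highest GC of any 100-base window of the transcript, in percent; right, for each of the 9 libraries, the median over the genes of a bin of log2(FPKM + 1) minus the gene's mean over all libraries. Above 80% GC the 3 DKO lines separate upward, and the percent called higher in DKO is 37.7 and 48.2 where it is 11.1 to 14 in the bins under 80%.

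Other facts of the libraries were as follows. Summed FPKM was 629663 to 702470 per library. Steps between low FPKM values gave relative depths of 54% to 100% of the deepest library (CTCF KO library 1), with the other CTCF KO libraries at 86.5% and 54% and the DKO libraries at 79.6% to 85.3%; absolute depth is unknown. Pearson correlations over the tested genes were 0.975 to 0.99 within CTCF KO, 0.987 to 0.993 within DKO, 0.911 to 0.951 between CTCF KO and DKO, 0.955 to 0.98 between CTCF KO and WT and 0.897 to 0.95 between DKO and WT. The 4 Y-linked genes Ddx3y, Eif2s3y, Uty and Kdm5d summed to 90 FPKM or more in every CTCF KO library and to at most 2.03 FPKM in all others, so donor sex and genotype cannot be told apart.

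Of the 9649 genes, 2047 (21.2%) were called higher in CTCF KO and 1787 (18.5%) higher in DKO, at an adjusted p under 0.05 with limma. Both directions were 2-fold or more in 442 and 684 genes, and 4-fold or more in 107 and 201. The libraries of the groups did not overlap for 5117 genes (53%). Of the tested genes, 261 reached 1 FPKM in the libraries of 1 group only, and 246 of these were called. Their direction was fixed by the filter, so list counts are given without such members too where a list holds more than 1. Members that passed mainly through 1 group, with some library of the other group at 1 FPKM, stay in those counts. Direction followed GC: of the 2052 GC-rich genes 8.28% were higher in CTCF KO and 41% in DKO, and of the 7540 others 24.8% and 12.4%. With the GC covariate these shares were 12% and 8.24% of the GC-rich genes and 11.4% and 8.2% of the others. That fit thus called fewer of the others too. GC-rich genes made up 68.9% of those at least 2-fold higher in DKO and 7.69% of those at least 2-fold higher in CTCF KO. Without them, 407 genes were at least 2-fold higher in CTCF KO and 209 in DKO. The balance of the comparison thus turned from more large differences in DKO to more in CTCF KO when the GC-rich genes were set aside. The median log2 fold change was 0.02 over all tested genes, -0.35 over GC-rich genes and 0.08 over the others. List counts below are to be read beside the shares called over all tested genes, 21.2% and 18.5%, or 24.8% and 12.4% without GC-rich genes.

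**Figure D2:**
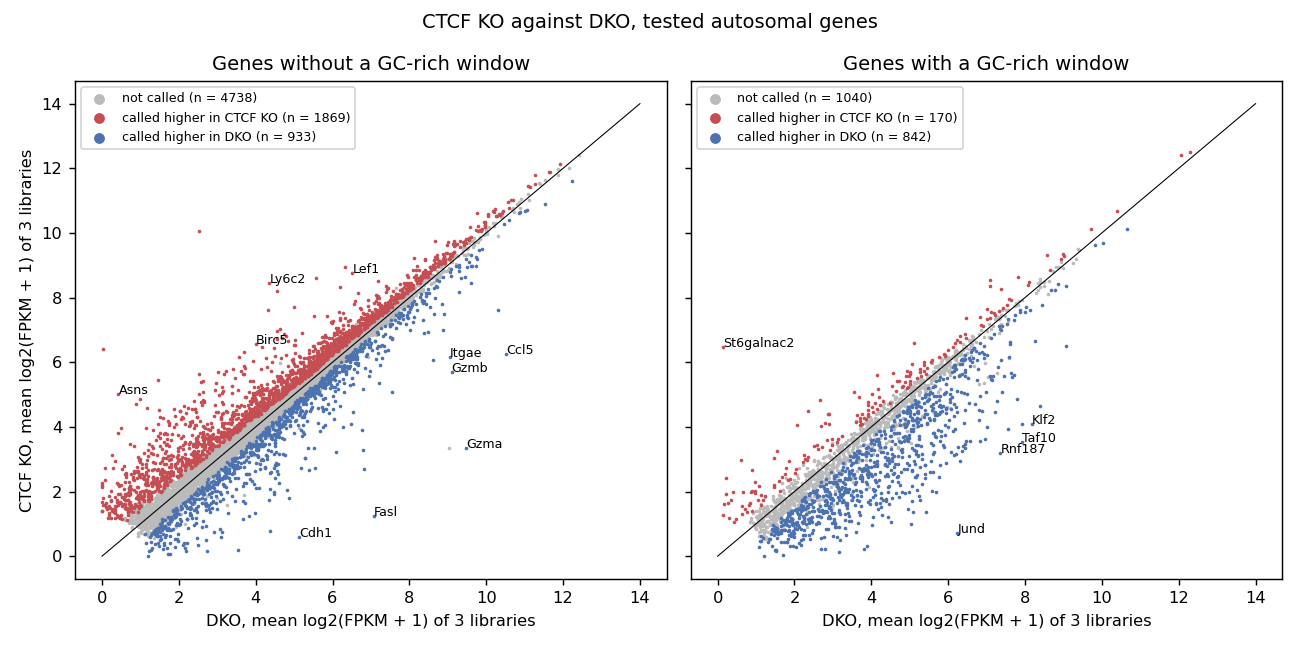
Mean log2(FPKM + 1) of the 3 CTCF KO libraries (vertical) against that of the 3 DKO libraries (horizontal) for each tested gene, split by whether its transcript has a window of 80% GC or more; red and blue mark genes called higher in CTCF KO or in DKO, grey the rest, and the line is equality. On the right 842 genes are blue and 170 red, while on the left 1869 are red and 933 blue.

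Cell cycle genes were higher in CTCF KO than in DKO. Of 79 tested genes of a list for G2/M and mitosis (79 of 79 autosomal members passed the filter), 73 were higher in CTCF KO and 3 in DKO, with a median log2 fold change of 1.65 against 0.02 over all tested genes. Of 52 genes of a list for G1/S and S phase, 47 were higher in CTCF KO and 0 in DKO, with a median of 1.10. Without members that reached 1 FPKM in 1 group only, the counts were 67 and 3 of 73 mitotic genes and 45 and 0 of 50 S phase genes. Stmn1, which encodes the microtubule-destabilising protein stathmin, had 456, 477 and 537 FPKM in CTCF KO and 80.6, 78.5 and 78 in DKO (log2 fold change 2.61, SE 0.07, adjusted p = 2.8e-07). Birc5, the survivin gene of the chromosomal passenger complex, had 92.3, 99.3 and 89.3 FPKM in CTCF KO and 12.7, 17.1 and 15.5 in DKO (log2 fold change 2.56, adjusted p = 5.1e-06). Every library of CTCF KO lay several-fold above every library of DKO for both genes, and WT lay higher again, at 859.5, 801 and 718 FPKM for Stmn1 and 246, 247 and 245 for Birc5. Aurkb, the kinase of that complex, had 28, 34.3 and 31.9 FPKM against 4.94, 5 and 4.39, with 80.5, 77.5 and 68.6 in WT. Ube2c, the ubiquitin-conjugating enzyme of the anaphase-promoting complex, had 50.8, 52.7 and 60 FPKM against 10.1, 10.8 and 8.31, with 183, 185 and 159 in WT. The order of the groups was the same in each of these genes, with DKO lowest and CTCF KO in between. Against WT, 72 of the 79 mitotic genes were lower in CTCF KO and 77 were lower in DKO. The 3 mitotic genes higher in DKO, named after their values were seen, were Cdc25b, a phosphatase that activates CDK1, Depdc1b and Pttg1, which encodes securin.

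Among replication genes, the subunits of ribonucleotide reductase differed in the same direction. Rrm2 had 119.9, 122 and 129 FPKM in CTCF KO, 21.4, 22.7 and 23 in DKO and 323, 293 and 291 in WT (log2 fold change 2.42, SE 0.07, adjusted p = 4.1e-07), and Rrm1 had 93, 94.3 and 97.8, 33.4, 35.5 and 31.6 and 154, 142 and 127. Rrm2 was again ordered DKO, CTCF KO, WT from low to high, without overlap. Gins2, of the replicative helicase, and Uhrf1, which brings the maintenance methyltransferase Dnmt1 to replicated DNA, showed another pattern. Gins2 had 37.6, 37.3 and 38.1 FPKM in CTCF KO, 8.99, 9.78 and 9.38 in DKO and 35.9, 42.9 and 43.2 in WT, and Uhrf1 had 84.1, 93.6 and 87.4, 14.6, 17 and 19.2 and 98.3, 101 and 94.2. For both, CTCF KO was not called against WT (adjusted p = 0.528 and 0.399) while DKO was lower. Over the S phase list, 17 of 52 genes were called lower than WT in CTCF KO and 48 in DKO. Tk1, thymidine kinase, was the S phase gene with the largest difference, at 46, 46 and 53.5 FPKM against 6.34, 4.27 and 3.88 (log2 fold change 3.11, adjusted p = 9.5e-06). Of 32 replication-dependent histone genes that passed the filter of 55 listed, 9 were higher in CTCF KO and 2 in DKO, with a median of 0.21 (6 and 2 of 29 without members at 1 FPKM in CTCF KO only). Over all tested genes the shares were 21.2% and 18.5%. Near-identical copies share reads, so these values are uncertain. Histone transcripts also mostly lack poly(A) tails, which matters only if poly(A) RNA was selected. Hist1h2ao had 34.2, 48.8 and 42.3 FPKM against 4.75, 6.75 and 4.34. Of 16 CDK inhibitors, D-type cyclins and their partners, 6 were higher in CTCF KO and 4 in DKO (3 and 0 with the GC covariate); Cdk4, the kinase that pairs with D-type cyclins, had 394, 424 and 414 FPKM against 243, 244 and 249, and Cdkn1b, the inhibitor p27, had 4.71, 5.25 and 4.73 against 11.9, 9.44 and 8.27. Cdk4 was higher in CTCF KO (adjusted p = 3.5e-05) and Cdkn1b in DKO (adjusted p = 0.00312, or 0.249 once the GC index is a covariate).

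Promoters of the cell cycle genes were read because the members moved together. RefSeq promoters of GRCm38.p6, 250 bases before to 50 after a gene's first listed start, were found for 7798 of the 9649 genes and searched on both strands. The cell cycle homology region (CHR), a 6-base element TTTGAA that the MuvB complex binds in late cell cycle promoters, is shown in capitals with its flanks in 3 mitotic genes, on the strand of the gene.
Cdc20 (chr4:118437344-118437378, minus strand): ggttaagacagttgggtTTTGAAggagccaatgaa
Ube2c (chr2:164769883-164769922, plus strand): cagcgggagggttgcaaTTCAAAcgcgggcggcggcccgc
Top2a (chr11:99024190-99024229, minus strand): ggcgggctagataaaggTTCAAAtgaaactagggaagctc
In Ube2c and Top2a the capitals read TTCAAA, the element on the other strand. TTTGAA was in 63.6% of 66 promoters of the mitotic list, in 26.2% of 347 promoters of genes at least 2-fold higher in CTCF KO, in 9.91% of 545 promoters of genes at least 2-fold higher in DKO, and in 12.3% of all tested and 18.1% of all 27025 promoters of the same length. CCAAT, the box bound by NF-Y, was in 74.2%, 49.3%, 35.8%, 39.7% and 37.9% of the same sets. With a list median of 1.65, many mitotic genes are also in the set at least 2-fold higher in CTCF KO. The shares of these 2 sets are therefore not independent. In 29 promoters of the cytotoxic effector list, mostly higher in DKO as given below, TTTGAA was in 24.1% and CCAAT in 44.8%. The median GC of these 29 was 49.3%. TTTGAA was thus not particular to the CTCF KO side. The E2F element TTTNNCGC was in 40.5% of 42 promoters of the S phase list, 9.18% of tested and 5.27% of all promoters. The Tcf/Lef core CTTTGA, which overlaps the CHR where both read CTTTGAA, was in 13.8% of promoters of genes at least 2-fold higher in CTCF KO, 11.6% of those at least 2-fold higher in DKO, 11.8% of all tested and 16.2% of all promoters. The CTCF core, here CCA, AG and GGC in this order with 2 bases of any kind after CCA and after AG, was in 1.44%, 4.59%, 2.86% and 2.41% of these. The median GC of the promoters was 58.3% in the genes at least 2-fold higher in CTCF KO, 65.3% in those at least 2-fold higher in DKO and 60.7% in all tested, so base composition differs between the sets. These are matches of letters and no binding was measured.

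Cytotoxic effector genes were mostly higher in DKO. The filter kept 35 of 39 listed, with 5 higher in CTCF KO and 22 in DKO, with a median log2 fold change of -0.85; without the 2 GC-rich members it was 5 and 21 of 33. Gzmc, Prdm1, Il2ra and Cx3cr1 reached 1 FPKM in DKO libraries only, and without them the counts were 5 and 18 of 31, with a median of -0.60. Against WT, 13 of the 35 were called in CTCF KO, all 13 lower, and 25 in DKO, 10 of them lower. Gzma, which encodes granzyme A, a serine protease of cytotoxic granules, had 9.13, 9.08 and 9 FPKM in CTCF KO, 630.3, 759.5 and 738 in DKO and 27.9, 25.1 and 25.1 in WT. This was the largest difference of any named gene higher in DKO (log2 fold change -6.14, SE 0.08, adjusted p = 1.6e-08), and WT lay between the groups, with each knockout called against it in opposite directions. Fasl, the ligand of the death receptor Fas, had 1.47, 1.37 and 1.2 FPKM against 126, 134 and 139.6, with 5.8, 5.46 and 5.98 in WT (log2 fold change -5.84, adjusted p = 3.0e-08). Ccl5, a chemokine of effector T cells, had 66.6, 77.3 and 83 FPKM against 1467, 1470.5 and 1475, with 299, 268 and 266 in WT (log2 fold change -4.27, adjusted p = 4.0e-08). Both shared the pattern of Gzma, with all WT libraries between the groups. Gzmb, granzyme B, had 48.8, 51.3 and 51.8 FPKM against 522, 569 and 551 and 60.6, 62.2 and 51.9 in WT. Here the DKO libraries stood apart (log2 fold change -3.41, adjusted p = 3.0e-08) and CTCF KO was not called against WT (adjusted p = 0.139). Gzmc, granzyme C, had 0.322, 0.146 and 0 FPKM against 11.7, 11.7 and 8.57 (log2 fold change -3.33). The 5 members higher in CTCF KO, named after their values were seen, were Il18rap and Klrd1, which encode receptor chains, Xcl1, a chemokine, Id2, an inhibitor of E proteins, and Anxa2. Gzmm and Ifng, named on the same terms, were not called and were far under WT in both groups: Ifng had 2.57, 1.54 and 2.35 FPKM in CTCF KO, 1.99, 2.51 and 2.73 in DKO and 10.5, 11.7 and 12.1 in WT, and Gzmm had 1.91, 2.22 and 2.32, 2.14, 3.39 and 3.33 and 41.4, 38 and 39.2.

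**Figure D3:**
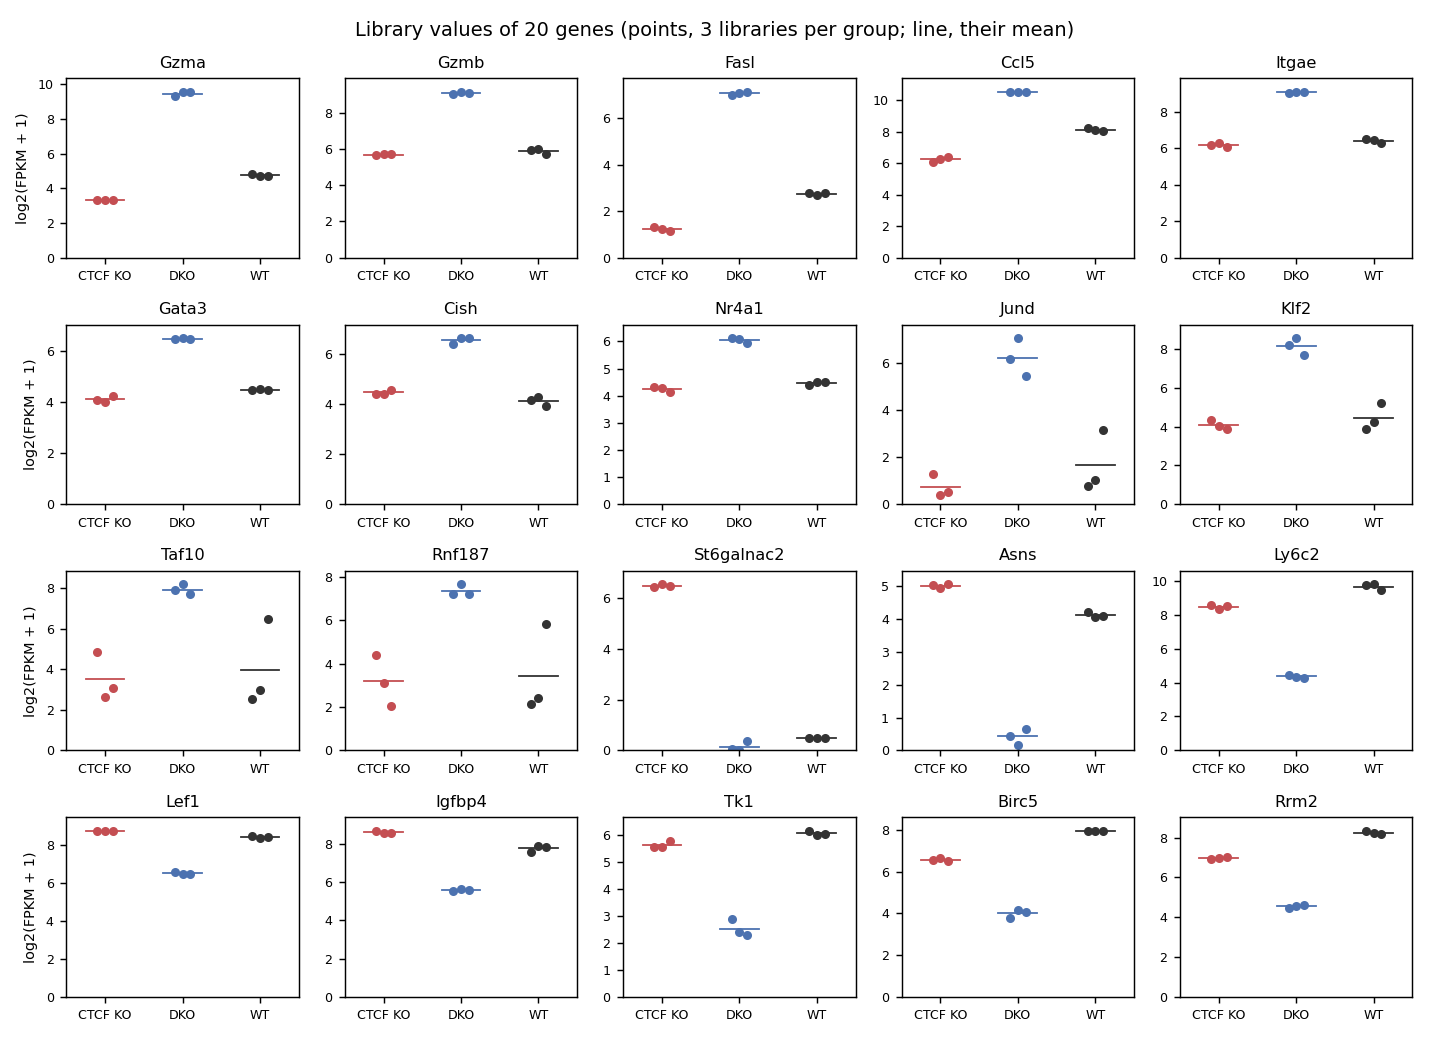
log2(FPKM + 1) of 20 genes in each library (points) with the mean of the 3 libraries of a group (line), for CTCF KO, DKO and WT. Gzma, Fasl and Ccl5 have WT between the knockouts, Birc5 and Rrm2 have CTCF KO between DKO and WT, and in the GC-rich genes Taf10 and Rnf187 the libraries of CTCF KO and WT scatter widely.

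Adhesion and homing receptors split. Of 27 trafficking receptors tested, 9 were higher in CTCF KO and 11 in DKO, and 7 and 10 of 24 without the 3 members at 1 FPKM in 1 group only. Over all tested genes 21.2% and 18.5% were called in these directions. Itgae, which encodes CD103, an integrin chain of intraepithelial T cells, had 71.2, 76.9 and 65.2 FPKM in CTCF KO and 509, 531 and 543 in DKO, with 88.3, 85.9 and 78.1 in WT (log2 fold change -2.88, SE 0.07, adjusted p = 1.7e-07). Cdh1, the gene of E-cadherin, the ligand of CD103, had 0.387, 0.686 and 0.462 FPKM against 38.7, 32 and 31.8 and 1.17, 1.01 and 1 in WT (log2 fold change -4.54, adjusted p = 7.6e-07). Both genes were set apart by the DKO libraries. Cxcr6, a chemokine receptor of tissue-resident T cells, had 68, 60.1 and 68.8 FPKM against 373, 404 and 406 (log2 fold change -2.57, adjusted p = 3.6e-07). Ccr7, the receptor for homing to lymph nodes, differed in the opposite direction, with 564, 608 and 625 FPKM in CTCF KO, 268, 276 and 281 in DKO and 551, 493 and 479 in WT (log2 fold change 1.12, adjusted p = 8.2e-06). S1pr4, a receptor for sphingosine 1-phosphate, had 57.7, 60.2 and 60.9 against 102, 101 and 99.9.

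Immediate early genes and others induced through the T cell receptor were mostly higher in DKO: of 28 that passed the filter of 35 listed, 1 was higher in CTCF KO and 19 in DKO, with a median of -0.79. Of these 28, 10 were GC-rich, and among the other 18 the counts were 1 and 11 and the median -0.48. Nfkbia, the inhibitor of NF-κB that NF-κB itself induces, had 181, 185 and 172 FPKM against 478, 485 and 455 (log2 fold change -1.39, SE 0.05, adjusted p = 2.3e-06). Nr4a1, an orphan nuclear receptor induced by T cell receptor signals, had 18.8, 18.5 and 16.5 FPKM against 68.7, 66.6 and 60.2, with 19.9, 21.4 and 21.8 in WT (log2 fold change -1.81, adjusted p = 8.2e-06). Neither has a GC-rich window, and in both the DKO libraries lay above all CTCF KO and WT libraries. Ier2 had 182, 179.6 and 171 FPKM against 419, 398 and 377, and Junb, an AP-1 subunit, 324, 368 and 347 against 809, 766 and 766, also called higher in DKO (log2 fold change -1.16 and -1.17). Jund, another AP-1 subunit whose GC-rich window is printed above, had 1.41, 0.309 and 0.442 FPKM in CTCF KO, 71.1, 135 and 43.1 in DKO and 0.72, 1.03 and 8.02 in WT (log2 fold change -5.51, SE 0.40, adjusted p = 4.4e-05). Dusp5, a phosphatase of ERK with a window of 85% GC, had 3.39, 0.163 and 0.535 FPKM against 31.2, 35.7 and 28. In Jund and Dusp5 the WT library with the highest GC index was also the highest of WT, at 8.02 and 11.3 FPKM; with the GC covariate the log2 fold changes were -3.66 (adjusted p = 0.00131) and -1.54 (adjusted p = 0.0374). Of 11 Krüppel-like factors, 1 was higher in CTCF KO and 9 in DKO, but 6 were GC-rich, and the others gave 1 and 3 of 5 (1 and 5 of 11 with the GC covariate). Klf2, which keeps T cells quiescent and drives homing receptors, had 19.2, 15.3 and 14 FPKM against 295, 382 and 211 and 13.6, 17.9 and 36.9 in WT (log2 fold change -4.08, adjusted p = 8.2e-06). Klf6, without such a window, had 72, 77.4 and 75.4 against 116, 115 and 122, and Klf10, the member higher in CTCF KO, 27.3, 28.4 and 32.1 against 12.2, 12.8 and 12.2.

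Among cytokine response genes, 6 of 28 were higher in CTCF KO and 12 in DKO, with a median of -0.04. Il6st, which encodes gp130, the shared chain of interleukin-6 family receptors, had 55.4, 56.1 and 55.9 FPKM in CTCF KO and 12.5, 11.3 and 12.7 in DKO, with 44.6, 43.3 and 41.5 in WT (log2 fold change 2.11, adjusted p = 2.3e-06). Cish, a STAT5-induced inhibitor of cytokine signalling, had 20.2, 20.1 and 22.7 FPKM against 83.3, 97.4 and 96.3 (log2 fold change -2.08, adjusted p = 4.7e-06). Il18r1, a chain of the interleukin-18 receptor, had 5.45, 8.26 and 7.98 against 36.9, 37.2 and 40.4, with 17.9, 15.3 and 15.9 in WT, so that the groups lay on either side of WT. Without CTCF KO library 2 or library 3, the count higher in DKO fell to 7, as it did with the GC covariate. Costimulatory receptors were more often higher in CTCF KO, in 10 of 17, against 2 in DKO, with a median of 0.40. Tnfsf8, the CD30 ligand, had 25.6, 26.1 and 24.3 FPKM against 7.87, 7.97 and 7.86 (log2 fold change 1.56, adjusted p = 1.7e-05). Slamf6, a receptor kept on Tcf1-expressing T cells, had 73.4, 78.6 and 77.5 FPKM against 27.4, 32.6 and 34.5, and Crtam 36.2, 42.9 and 36.9 against 14.9, 17.7 and 16.9. Of 14 inhibitory receptors and exhaustion genes, 3 were higher in CTCF KO and 5 in DKO (1 and 4 with the GC covariate), beside 21.2% and 18.5% of all tested genes. Cd160 had 57, 62.1 and 55.3 FPKM against 10.3, 13.2 and 12.5 (log2 fold change 2.19, adjusted p = 8.2e-06), whereas Ctla4 had 0.876, 0.172 and 1.53 against 8.63, 5.67 and 8.3 and Nt5e, which encodes CD73, 40, 39.4 and 38.7 against 56.2, 51 and 54.7. Ctla4 and Nt5e were higher in DKO (adjusted p = 0.000748 and 0.00202).

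Genes of other T lineages that passed the filter, 7 of 26 listed, were higher in CTCF KO in 2 cases and in DKO in 5. Rora and Ccr8 reached 1 FPKM in DKO libraries only, so their direction was fixed, and the other 5 gave 2 and 3. Nrp1, among these 5, also passed through the DKO libraries, since only CTCF KO library 3 reached 1 FPKM. Its direction is therefore no independent support. With the GC covariate the counts over all 7 were 0 and 3. Gata3, a regulator of helper and thymic T cells, had 15.7, 15 and 17.8 FPKM in CTCF KO, 86.9, 89.7 and 87.4 in DKO and 21.1, 21.8 and 21.2 in WT (log2 fold change -2.38, SE 0.08, adjusted p = 1.3e-06). Nrp1, neuropilin 1, a surface protein of thymus-derived regulatory T cells, had 0.464, 0.36 and 1.51 FPKM against 20.2, 19.7 and 18.9 (log2 fold change -3.59, adjusted p = 2.5e-05). Both stood apart in DKO, though for Gata3 CTCF KO was also called lower than WT (adjusted p = 0.0109). Ccr8 had 0, 0.163 and 0 FPKM against 1.99, 2.89 and 2.11, and Ccr4, one of the pair higher in CTCF KO, 4.74, 3.51 and 4.25 against 1.69, 2.03 and 1.24. The count higher in DKO was 3 when CTCF KO library 1 or 2 or the DKO library in column 1 or 3 was left out.

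Naive and quiescence genes moved both ways, with 12 of 30 higher in CTCF KO and 16 in DKO, and 10 and 10 of 21 without GC-rich members (10 and 10 of 30 with the GC covariate). Large differences lay on both sides, from 4.11 for Ly6c2 to -4.08 for the GC-rich Klf2 described above. Ly6c2, which encodes a Ly6C antigen, had 374, 322 and 361 FPKM in CTCF KO, 21.1, 19.3 and 18.1 in DKO and 838, 875 and 685 in WT (log2 fold change 4.11, SE 0.08, adjusted p = 6.0e-08). Dapl1 had 272, 308 and 309 FPKM against 25.2, 21.4 and 21.6, with 421, 408 and 483 in WT (log2 fold change 3.65, adjusted p = 1.5e-07). Igfbp4, an insulin-like growth factor binding protein of naive T cells, had 410.1, 373 and 379 FPKM against 45.6, 48.3 and 46.6, with 188, 237 and 227 in WT (log2 fold change 3.02, adjusted p = 6.0e-08). DKO was the lowest group in all of these, while CTCF KO lay below WT for Ly6c2 and Dapl1 and above it for Igfbp4. Of 24 T cell identity genes, 13 were higher in CTCF KO and 6 in DKO, with a median of 0.22 (8 and 4, with a median of 0.08, with the GC covariate). Cd5, a negative regulator of T cell receptor signalling, had 145, 150.2 and 149 FPKM against 60.8, 62.2 and 63.2, with 112, 108 and 111 in WT (log2 fold change 1.24, adjusted p = 5.4e-06). Cd8a had 442, 470.3 and 479 FPKM against 278, 292 and 285, and Cd27 280.4, 303 and 295 against 179, 198 and 196. Cd247, which encodes CD3ζ, a signalling chain, had 1128, 1153 and 1190.2 FPKM against 708, 810.1 and 779 and 385, 366 and 328 in WT, above WT in both groups and highest in CTCF KO (log2 fold change 0.60, adjusted p = 0.000255). Killer lectin-like receptors were higher in CTCF KO in 6 of the 8 that passed the filter of 25 listed, and in DKO in 1. Klra3 and Klra6 reached 1 FPKM in CTCF KO libraries only, and the other 6 gave 4 and 1. Klra3 had 6.92, 5.34 and 4.38 FPKM against 0.161, 0.901 and 0.365, and Klra6 2.05, 3.98 and 4.58 in CTCF KO and was listed at 0 in every DKO library. Klrk1, which encodes NKG2D, was the member higher in DKO, at 0.947, 1.28 and 1.51 against 3.41, 3.84 and 3.54. These receptor genes, like Ly6c2, have near-identical copies, so reads may be split between them. The 3 called members of the Ly6 family of 7 tested, with Ly6c2, were Ly6e, higher in DKO at 379, 397 and 401 against 603, 671 and 677 FPKM, and Ly6g5b, higher in CTCF KO. Of 8 Gimap GTPases, which act in lymphocyte survival, 0 were higher in CTCF KO and 6 in DKO, with a median of -0.42; Gimap3 had 474, 501 and 518 FPKM against 717, 720.3 and 731 and Gimap1 159, 173 and 166 against 264, 247 and 236.

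**Figure D4:**
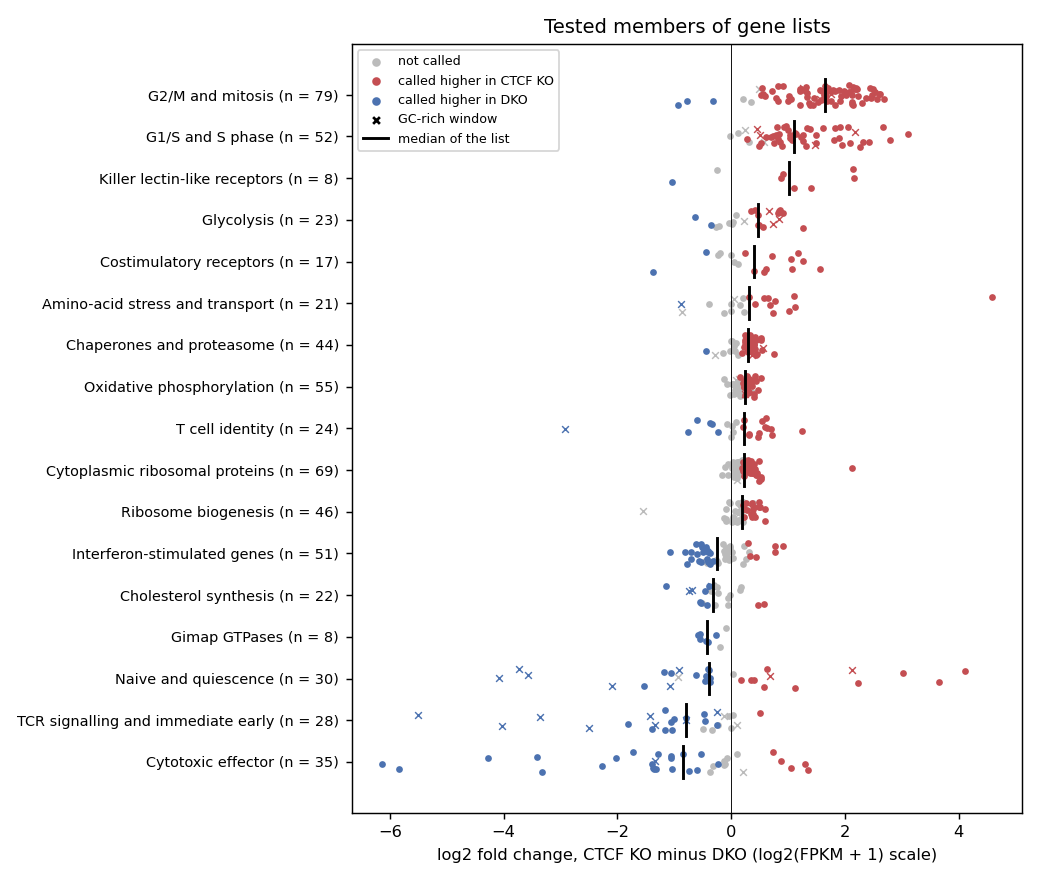
Log2 fold change (CTCF KO minus DKO, log2(FPKM + 1) scale) of each tested member of 17 gene lists; points are genes, red called higher in CTCF KO, blue called higher in DKO, grey not called, crosses GC-rich, and the black bar is the list median. The medians run from 1.65 for G2/M and mitosis to -0.85 for cytotoxic effector genes.

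Biosynthetic and metabolic lists had small and mostly one-sided differences towards CTCF KO. Of 69 cytoplasmic ribosomal protein genes 40 were higher in CTCF KO and 0 in DKO (median 0.22), of 46 ribosome biogenesis genes 18 and 0 (median 0.19), of 55 oxidative phosphorylation genes 32 and 0 (median 0.24), of 44 chaperone and proteasome genes 34 and 1 (median 0.30) and of 23 glycolysis genes 14 and 2 (median 0.46). Rplp0, of the ribosomal stalk, had 1604, 1802 and 1774 FPKM against 1177, 1247 and 1165, and Npm1, the nucleolar protein nucleophosmin, 616, 623 and 663 against 415, 408 and 438. Atp5b, the β subunit of ATP synthase, had 1535, 1642 and 1685 FPKM against 1123, 1212 and 1171, and Psma1, a proteasome subunit, 459, 445 and 484 against 242, 291 and 291. The glycolytic enzyme genes Tpi1 and Ldha differed more, with 142, 164 and 155 against 63.4, 64 and 63 for Tpi1 and 1516, 1602 and 1612 against 821, 913 and 885 for Ldha (log2 fold change 1.26 and 0.85). In 3 of these lists the DKO libraries were mostly the ones that departed from WT. Lower than WT in DKO were 55 of 69 ribosomal protein, 42 of 55 oxidative phosphorylation and 38 of 44 chaperone and proteasome genes, against 2, 11 and 7 in CTCF KO. For glycolysis the counts were 14 of 23 and 1, and for ribosome biogenesis 18 of 46 and 1. Over all tested genes 40.8% were called in DKO against WT, in either direction. The counts are sensitive to the libraries, since the oxidative phosphorylation count was 21 and 18 without CTCF KO library 2 and library 3, the ribosome biogenesis count 11 without CTCF KO library 3. Under quantile normalization the counts higher in CTCF KO were 23 for oxidative phosphorylation and 30 for ribosomal proteins. With the GC covariate they were 5 for oxidative phosphorylation, 4 for ribosome biogenesis, 9 for chaperones and proteasome and 21 for ribosomal proteins. That fit also called fewer of all genes without a GC-rich window, 11.4% against 24.8% higher in CTCF KO. Genes with at least 200 FPKM on average were higher in CTCF KO in 42.4% of cases and in DKO in 16.8%, so the level of a gene moves with the direction of its call.

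Amino acid genes held one of the largest differences. Of 21 genes of amino acid stress and transport, 11 were higher in CTCF KO and 1 in DKO, with a median of 0.31. Asns, asparagine synthetase, had 31.8, 29.9 and 32.3 FPKM in CTCF KO, 0.366, 0.125 and 0.588 in DKO and 17.6, 15.7 and 16 in WT (log2 fold change 4.58, SE 0.16, adjusted p = 1.1e-06). CTCF KO was above WT (adjusted p = 0.00297) and DKO under 1 FPKM in each library. Psat1 of serine synthesis had 65.5, 64.5 and 71.7 FPKM against 28.4, 31.4 and 31.9, and Mthfd2 of mitochondrial folate metabolism 73.7, 63.3 and 75.2 against 35.5, 33.8 and 34.1, each near WT in CTCF KO and lower in DKO. Cholesterol synthesis differed the other way, with 2 of 22 higher in CTCF KO and 9 in DKO and a median of -0.33 (1 and 5 with the GC covariate). Sqle, squalene epoxidase, had 19.7, 21.8 and 20.8 FPKM in CTCF KO, 30.4, 29.4 and 27.5 in DKO and 11.4, 14.1 and 9.01 in WT (log2 fold change -0.47, adjusted p = 0.00423). It was above WT in both groups and highest in DKO, as was Srebf2, the transcription factor of this pathway, at 51.3, 55.9 and 52.7, 78.1, 77.6 and 75.6 and 45.2, 45.7 and 41.9 FPKM.

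Interferon-stimulated genes had 6 of 51 higher in CTCF KO and 21 in DKO, with a median of -0.26 and no GC-rich member (3 and 18 with the GC covariate). Ifi27l2a had 394, 413 and 391 FPKM in CTCF KO, 699.6, 731 and 679 in DKO and 926, 903 and 836 in WT, lower than WT in both groups and lowest in CTCF KO (log2 fold change -0.81, adjusted p = 2.3e-05). Bst2, which encodes the viral restriction factor tetherin, had 81.4, 93.6 and 70.7 FPKM against 175, 173 and 173. Psmb9, an immunoproteasome subunit, went the other way, with 496, 522 and 491 against 284, 315 and 287. So did Ifi27, with 231, 255 and 231 against 137, 149 and 135 (log2 fold change 0.77, adjusted p = 0.000112). Ifi27 and Ifi27l2a are listed with the same locus, so reads may be split between them. Of 25 genes of MHC class I and antigen processing, 12 were higher in CTCF KO and 3 in DKO, but 2 and 3 with the GC covariate, where H2-Q7 was not called (0.50, adjusted p = 0.0709). H2-Q7 had 224, 212 and 206 FPKM against 122, 104 and 140.0 and H2-Q10 7.1, 7.99 and 5.84 against 0.587, 0.432 and 0.57; the H2-Q genes are near-identical, so reads may be split between them. H2-Q6 varied widely within groups, with 0.00149, 12.2 and 2.13 FPKM in CTCF KO, 28.2, 38.3 and 20.5 in DKO and 0.0633, 38.5 and 44.3 in WT. Of 35 p53 targets and apoptosis genes, 8 were higher in CTCF KO and 12 in DKO (6 and 6 of 27 without GC-rich members, and 3 and 6 of 35 with the GC covariate). The 8 higher in CTCF KO fell to 5 without CTCF KO library 3 or the DKO library in column 1. Over all tested genes the shares were 21.2% and 18.5%. Pmaip1, the BH3-only protein Noxa, had 4.92, 4.72 and 6.56 FPKM against 43.4, 33.6 and 46.5, with 5.32, 5.11 and 7.42 in WT (log2 fold change -2.72, adjusted p = 1.6e-05), and Btg2, an antiproliferative p53 target, 70.3, 65.5 and 69.9 against 156, 148 and 164.

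Many chromatin factor genes were GC-rich. Of 21 genes of CTCF, cohesin and loop factors, 4 were higher in CTCF KO and 9 in DKO, but 12 were GC-rich, and among the other 9 the counts were 3 and 0. The 9 higher in DKO fell to 4 without CTCF KO library 3 and to 0 with the GC covariate. Sgol1, Cdca5 and Esco2, which protect or establish sister chromatid cohesion, were those 3; Cdca5 had 16.7, 15 and 13.2 FPKM against 1.51, 2.94 and 3.96. Of 17 Tcf/Lef, β-catenin and Groucho genes, 2 were higher in CTCF KO, Lef1 among them, and 9 in DKO, 10 of the list being GC-rich; the other 7 gave 1 and 3. Tle1, a Groucho corepressor with a GC-rich window, had 1.04, 0.22 and 0.364 FPKM against 7.96, 8.1 and 6.71. The count higher in DKO fell to 4 without CTCF KO library 2, to 5 without any single DKO library and to 2 with the GC covariate. Of 27 DNA methylation and Polycomb genes, 7 were higher in CTCF KO and 5 in DKO (5 and 2 with the GC covariate, and 6 and 3 without CTCF KO library 3); Dnmt1 had 86.7, 101 and 102 FPKM against 60.1, 54.4 and 56.8, Ezh2, the Polycomb methyltransferase, 39.2, 31.2 and 34.7 against 15.6, 17.5 and 18.3, and Cbx7 of the other Polycomb complex 10.6, 7.18 and 6.71 against 35.7, 43.1 and 37.5. Dnmt1 and Ezh2 were higher in CTCF KO and Cbx7 in DKO, Ezh2 and Cbx7 being GC-rich, and without the 14 GC-rich members the counts were 4 and 0 of 13. Over all tested genes 21.2% and 18.5% were called in these directions, and 24.8% and 12.4% of those without a GC-rich window. Of 10 imprinted genes 1 was called in each direction, Inpp5f and Gnas, and 0 in either with the GC covariate. None of the 17 clustered protocadherins, a gene family known for CTCF-dependent promoter choice, passed the filter.

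The 12 largest differences on the CTCF KO side held several genes of no list. St6galnac2, a sialyltransferase gene, had 85, 91.4 and 87.8 FPKM in CTCF KO, 0.0287, 0 and 0.304 in DKO and 0.404, 0.418 and 0.4 in WT (log2 fold change 6.34, SE 0.14, adjusted p = 8.1e-08). Its neighbour BC018473, left out by the naming rule and chosen after its values were seen, had 80.2, 84.7 and 84.7 FPKM in CTCF KO, 0.0338, 0 and 0.0324 in DKO and 0, 0.035 and 0.0182 in WT. Both were present in the CTCF KO libraries and near 0 in all 6 others. They lie on chromosome 11, with deposited loci from 116538018 to 116555974 and from 116613480 to 116619197, while the flanking Jmjd6, chosen in the same way, had 61.8, 65.6 and 60.2 FPKM against 62.6, 66.4 and 61.5. Nme4, a mitochondrial nucleoside diphosphate kinase, had 37.5, 44.9 and 46.5 FPKM against 1.36, 1.34 and 2.68 and 32.1, 28.4 and 26.3 in WT. Slc16a5, a monocarboxylate transporter, had 23.6, 24.5 and 27 against 0.828, 0.975 and 0.777, and Ctse, the protease cathepsin E, 187, 187 and 208 against 17.6, 19.1 and 20. In these 3 CTCF KO was not called against WT (adjusted p = 0.0855, 0.41 and 0.0795) and DKO was lower. Ccdc109b, a subunit of the mitochondrial calcium uniporter, had 16.9, 13.1 and 13.8 FPKM against 0.241, 0.0498 and 1.12, and Folr4, a folate receptor family member, 20.3, 22.2 and 23.8 against 1.95, 1.15 and 2.47. Trpm1, a cation channel gene, had 20.6, 22.4 and 26 FPKM against 1.03, 1.11 and 1.72 with 8.72, 6.87 and 9.37 in WT, and F12, coagulation factor XII, 10.5, 15.3 and 13.5 against 0.418, 0.214 and 0.375 with 0.783, 0.53 and 0.834. Trpm1 departed from WT in both groups, in opposite directions, and F12 in CTCF KO.

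On the DKO side, 7 of the 12 largest differences were in GC-rich genes, namely Jund, Taf10, Rnf187, Klf2, Yrdc, Dusp5 and Tprgl. Rnf187, a ubiquitin ligase, had 20, 7.56 and 3.2 FPKM in CTCF KO, 149, 201 and 146 in DKO and 3.39, 4.36 and 55.4 in WT, and Tprgl 67.1, 9.37 and 6.13, 219, 286 and 224 and 6.52, 22.9 and 117. In both, CTCF KO library 1 and WT library 3, the libraries with the highest GC index of their groups, were the highest. The GC index comes from GC-rich genes, the 7 named among them, and is highest in DKO, so a fit with it cannot tell GC from genotype. With the GC index as a covariate over 9 libraries, the log2 fold change of Taf10 went from -4.41 to -1.22 (adjusted p = 0.181), that of Rnf187 from -4.17 to -1.21 (adjusted p = 0.222) and that of Tprgl from -3.82 to -0.13 (adjusted p = 0.821), so that these 3 were not called. The other 4 were still called, at -3.66 for Jund, -3.06 for Klf2 (adjusted p = 3.6e-05), -2.72 for Yrdc (adjusted p = 0.00426) and -1.54 for Dusp5, as were Gzma, Fasl, Ccl5 and Gzmb. Of the genes without such a window, Nsmce4a, a subunit of the SMC5/6 complex, had 9.28, 2.96 and 5.64 FPKM against 91.8, 213 and 73.3, and Clint1, a clathrin adaptor, 21.6, 5.79 and 5.13 against 107, 126 and 98.9 with 5.26, 6.26 and 43.7 in WT. Mrps30, of the mitochondrial ribosome, had 29.1, 4.88 and 3.66 FPKM in CTCF KO, 66.6, 70.7 and 63.7 in DKO and 2.67, 8.09 and 52.8 in WT. In Clint1, Mrps30 and Nsmce4a, all under the limit of 80%, CTCF KO library 1 and WT library 3 were again the highest of their groups, and with the covariate Clint1 (adjusted p = 0.14) and Mrps30 (adjusted p = 0.288) were not called while Nsmce4a was (-2.65, adjusted p = 0.0128).

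Markers of other cells were examined over the whole lists. Of 12 B cell markers 1 passed the filter, Cd79b, at 33, 35.4 and 36.9 FPKM in CTCF KO and 99, 117 and 112 in DKO; Pax5 was at 0 in all 9 libraries. Of 14 neutrophil markers listed 2 passed, S100a8 and S100a9, both higher in CTCF KO, though they passed through the CTCF KO libraries only, which fixed that direction; their sum was 14.3 to 18.4 FPKM in CTCF KO, 0.4 to 1.52 in DKO and 31 to 42.3 in WT, with Elane at 0 in all libraries. Of 15 pancreas markers 7 passed, 3 of them (Try4, Try5 and Pnlip) through the CTCF KO libraries only, and the other 4 were all higher in CTCF KO. Of these 4, Cela2a and Clps also passed through the CTCF KO libraries, with DKO values of 0.658 to 1.31 and 0 to 1.09 FPKM. Try4, Try5 and Prss2 also lie in a run of called genes with Ephb6, given below. With the GC covariate 4 of the 7 were called. The 7 summed to 30.1 to 35.5 FPKM in CTCF KO, 8.94 to 9.65 in DKO and 3.62 to 6.88 in WT, among them Cela2a (7.35, 7.54 and 7.12 against 0.862, 0.658 and 1.31) and Pnlip (4.3, 4.16 and 3.79 against 0, 0.128 and 0.0402), both at 0 in every WT library; Ins1, Prss1 and Try10 were at 0 in all libraries. Of 15 dendritic cell markers 12 passed and 6 were higher in DKO, with sums of 998 to 1070 FPKM in DKO, 709 to 775 in CTCF KO and 740 to 777 in WT; these include MHC class II genes such as Cd74 at 314, 321 and 298 against 401, 415 and 381. Macrophage and monocyte markers split 1 and 1 of 15 passed, Ctss and Ccr2 (0 and 0 with the GC covariate), with sums of 349 to 378 FPKM in CTCF KO, 292 to 334 in DKO and 336 to 359 in WT. Of 13 NK cell markers 5 passed and Klra7 was higher in CTCF KO, with sums of 83.3 to 90.8, 84.8 to 99.9 and 92 to 97.7 FPKM. Plasma cell, erythroid, platelet and stroma lists had 1, 2, 1 and 1 called members, Prdm1, Car2 and Hbb-b1, and Itga2b higher in DKO, and Pecam1 higher in CTCF KO, with Prdm1 and Itga2b at 1 FPKM in DKO libraries only and 1 erythroid and 0 platelet genes called with the GC covariate; sums over the tested members were 38.4 to 51.7, 60.1 to 121, 2.83 to 6.56 and 27.5 to 44 FPKM over CTCF KO and DKO. In bulk samples fewer cells of a type and less RNA per cell cannot be told apart, and the part of other cells in the results above was not tested.

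To tell which side departed from WT, both knockouts were set against WT in 1 fit over the 9 libraries; the comparisons share the WT libraries, so their values stand side by side only. Over all tested genes 1159 (12%) were called in CTCF KO against WT and 3932 (40.8%) in DKO against WT. Of the 3834 genes that differed between the knockouts, 759 were called in CTCF KO against WT and 2731 in DKO. Of the 2047 higher in CTCF KO, 1154 departed from WT in DKO alone, 191 in CTCF KO alone, 344 in both and 358 in neither. Of the 1787 higher in DKO, 1100 departed in DKO alone, 91 in CTCF KO alone, 133 in both and 463 in neither. Without GC-rich genes the shares in DKO alone were 56.1% and 59.1%, and in CTCF KO alone 9.42% and 8.68%. The mean of CTCF KO was nearer WT than that of DKO for 82.6% of the called genes, and for 70% of all tested genes. Both knockouts were below WT for 253 genes higher in CTCF KO, among them the mitotic genes above. They lay on opposite sides of WT, each called, for 71 genes higher in CTCF KO and 51 higher in DKO. Ephb6, an ephrin receptor gene chosen after its values were seen, was a departure of CTCF KO, with 75.2, 83.5 and 78.5 FPKM against 11.8, 12.4 and 12 in DKO and 12.8, 11.5 and 9.29 in WT. Of the genes that differed between the knockouts, those also called in CTCF KO against WT numbered 468 without CTCF KO library 2 and 465 without library 3.

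**Figure D5:**
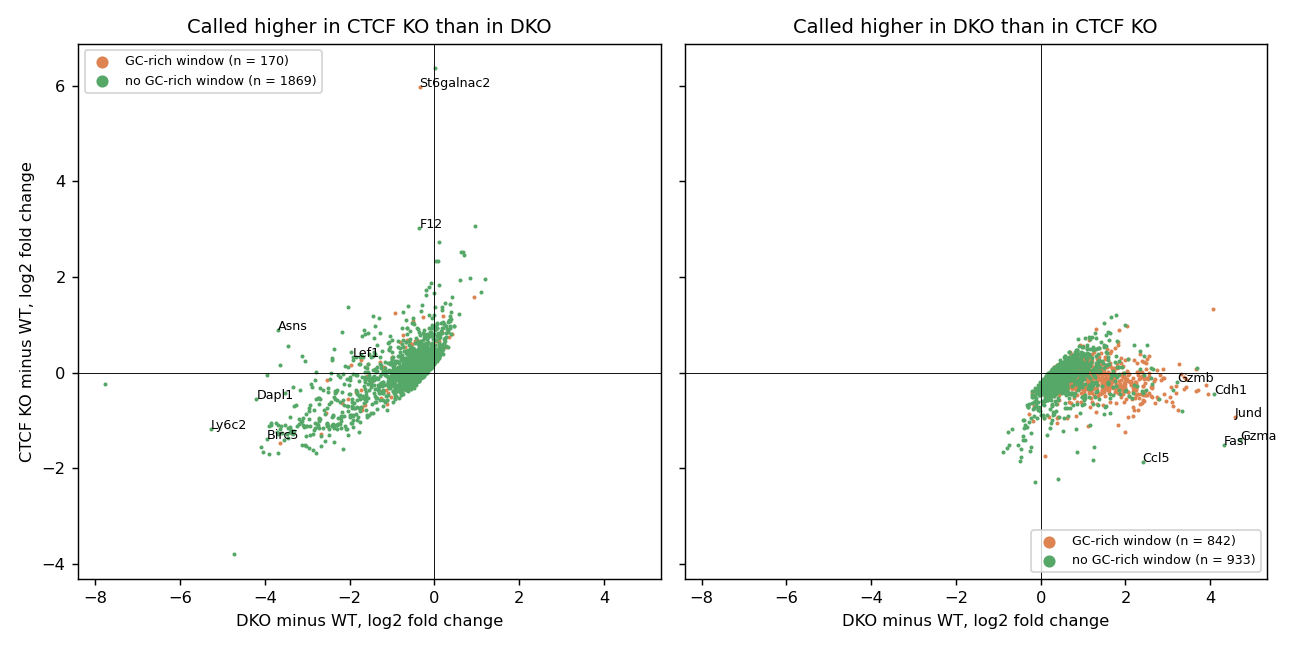
Log2 fold change of CTCF KO minus WT (vertical) against DKO minus WT (horizontal) for genes called higher in CTCF KO than in DKO (left) and higher in DKO (right); each point is a gene, orange with and green without a GC-rich window, and both axes share the WT libraries. Most points spread along the horizontal axis, 1154 on the left and 1100 on the right departing from WT in DKO alone.

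Called genes were spread over the genome. Per autosome 17.2% (chromosome 8) to 27.5% (chromosome 15) of tested genes were higher in CTCF KO and 14.4% (chromosome 18) to 22.9% (chromosomes 12 and 19) higher in DKO. The longest run of neighbouring tested genes called in the same direction held 9 genes higher in CTCF KO on chromosome 16, from Ranbp1 to Cdc45, in 6 distinct deposited loci. A run of 5 genes around the targeted Lef1 on chromosome 3, from 130398834 to 130975019 as deposited, held Ostc, Rpl34, Rpl34-ps1, Lef1 and Hadh. Rpl34 had 327, 329 and 306 FPKM in CTCF KO, 81.5, 67.5 and 69.2 in DKO and 341, 322 and 322 in WT (log2 fold change 2.13, adjusted p = 2.2e-06). Rpl34-ps1, left out by the naming rule as a pseudogene and listed with the same locus, had 1060.3, 1092 and 1078 FPKM against 12.6, 9.16 and 0.405, so reads of the pair may be split. Ostc, a subunit of the oligosaccharyltransferase, had 232, 204 and 223 FPKM against 169.6, 174 and 173, and Hadh, of fatty acid oxidation, 54, 51.3 and 58.5 against 38.3, 36.5 and 35.5. All lay lower in DKO than in WT, with the largest differences at Rpl34, its pseudogene and Lef1. A run on chromosome 6 held the trypsinogen genes Try4, Try5 and Prss2 with Ephb6, which lie among or beside the T cell receptor β genes, and a run of 5 killer lectin-like receptor genes shared 2 loci. The positions are as deposited and are not those of GRCm38: among 22463 genes matched by symbol, 968 began within 1000 bases of the GRCm38 start, and mm9 is the other build named in the submitters' processing notes.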

How the data were processed

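RNA of sorted CD8 T cells was sequenced in 9 libraries, 3 per group. The deposited table gives FPKM per gene and library, which the authors made; FastQC, TopHat2 2.1.0 and Cuffdiff 2.2.1, and the builds mm9 and mm10, are named in the submitters' processing notes, without roles. FPKM are not counts, so no count test was run, absolute depth is unknown, and no interval for counting error is given. The labels do not tie the libraries to separate animals, so p-values measure the spread between these libraries, which may be technical. Columns of the authors' own fold changes and q values were not used.

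Genes on the 19 autosomes that reached 1 FPKM in 3 or more of the 6 CTCF KO and DKO libraries were tested on log2(FPKM + 1), which understates changes of low genes, with limma 3.58.1 in R 4.3.3 (intensity trend, Benjamini-Hochberg adjustment over all tested genes, threshold 0.05), after tests on simulated data. Departures from WT came from a fit over 9 libraries. Named were the targeted genes, the 12 genes per direction with the largest fold change, a mean of at least 5 FPKM and no overlap, the same without GC-rich genes, up to 5 per direction with WT between, and up to 4 called genes per list (2 where none was called); others are said to be chosen after their values were seen. The members and lists were chosen with earlier results of these data known. Alternatives were the pseudocount, filter, scaling, trend, libraries fitted, GC-rich genes, a GC covariate and leaving out each library. Genes that share a deposited locus may share reads.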

Additional observations from a re-analysis of the deposited data

Results flagged for a closer look

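The 4 Y-linked genes Ddx3y, Eif2s3y, Uty and Kdm5d, which no comparison above used, summed to at least 90 FPKM in each CTCF KO library and to at most 2.03 FPKM in each DKO and WT library. They stand out as a signal outside the autosomal genes tested, and were not related to any autosomal difference.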

How the results depend on the processing

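Counts of genes higher in CTCF KO (2047) and in DKO (1787) stayed within 1.5 times under pseudocount 0.1, no filter, a mean of at least 5 FPKM, quantile normalization, equal medians, no trend, 9 libraries and all chromosomes. With equal medians they were 2367 and 1565. Tested on genes without a GC-rich window alone, 1024 were higher in DKO and 2015 in CTCF KO. With the GC index as a covariate, chosen after seeing the data, they were 1114 and 790, and the genes that differed between the knockouts and departed from WT in DKO numbered 1460 against 2731. Under that covariate Mrps30 reversed, to 0.54 (adjusted p = 0.288); the cause was not tested. Leaving out 1 library gave 1568 to 2096 higher in CTCF KO and 1291 to 1928 higher in DKO, and departures from WT of 465 to 665 in CTCF KO (468 and 465 without CTCF KO library 2 and 3, against 759, and 507 to 614 without a WT library) and 2116 to 2886 in DKO. No paired analysis was possible because the replicate numbers of the DKO columns match different samples in different labels. For CTCF KO and WT, same-numbered libraries deviated with correlations of -0.694, 0.128 and -0.522. Deviations from a mean of 3 libraries depend on each other, and the GC index differed between libraries. These correlations therefore cannot tell whether the numbers pair the libraries. With the replicate block 212 departures were called, and 629 in the same 6 libraries without it. Absolute depth is unknown, and low FPKM are imprecise.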
